A study of Drosophila melanogaster with 36 samples.

Results

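Aminoacyl tRNA synthetases are the enzymes that join each amino acid to its tRNA, the step that supplies ribosomes with charged tRNAs. They were taken as the genes whose symbol is an amino acid code followed by RS, with or without the suffix -m, or is GluProRS, which gave 33 of the 17610 genes in the deposited count tables. The 18 genes without the suffix are called cytosolic here and the 15 with it mitochondrial, by symbol alone. Both subunits of the cytosolic phenylalanine enzyme, alpha-PheRS and beta-PheRS, and Slimp, a mitochondrial paralogue of the seryl enzyme, fell outside the symbol rule and are given separately.

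The RNA came from fat bodies of Drosophila melanogaster third-instar larvae, a tissue with liver-like and fat-like functions that also makes the storage proteins of the hemolymph. Larvae were w1118, a common laboratory strain, or per0, a mutant strain without a working copy of the core clock gene period. All were entrained to 12 h of light and 12 h of darkness and sampled in constant darkness at 9 circadian times (CT), every 4 h from CT0 to CT32. Each genotype and time had 2 libraries, lettered A and B in the deposited columns, of 5 larvae each, which makes 18 libraries per genotype and 36 in all. Larvae of both sexes were used, and testis marker RNA differed widely between the pools, as given below. CT0, CT4 and CT8 are called the first day here, CT12, CT16 and CT20 the night, and CT24, CT28 and CT32 the second day, with 6 libraries per genotype in each.

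Many of these enzymes have separate genes for cytosolic and for mitochondrial translation, all of them in the nucleus, while in animals some genes, those for glycine and lysine among them, supply both compartments. The genes for glycine, histidine, lysine and threonine had no partner with the suffix here, so a gene called cytosolic may serve both. Several of the cytosolic enzymes sit together in a multisynthetase complex held by the AIMP scaffold proteins. Where mitochondria lack a glutaminyl enzyme, glutaminyl tRNA is made instead from glutamyl tRNA by the GatCAB amidotransferase, and no gene named for a mitochondrial glutaminyl enzyme was among the members. Of the 33, 12 amino acids had a cytosolic gene of their own and a mitochondrial gene: alanine, arginine, asparagine, aspartate, cysteine, isoleucine, leucine, methionine, serine, tryptophan, tyrosine and valine. Glutamate and proline also had a mitochondrial gene each, GluRS-m and ProRS-m, but share the single cytosolic gene GluProRS and were left out of the pairs.

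Total counts ran from 16948806 to 25110769 per w1118 library and from 16513757 to 28423768 per per0 library, so that 3 counts correspond to 0.0995 to 0.211 CPM, a count divided by the scaled library size. Such floors cover counting error only, because the kit amplified by PCR without molecular identifiers. All 9 fat body markers were detected, and their summed level rose from a first-day median of 167030 CPM to 402062 CPM on the second day in w1118 and from 49898 to 382213 CPM in per0. The storage protein genes Lsp1alpha, Lsp1beta and Lsp1gamma made up most of the second-day sums, so the sums do not measure fat body RNA as a whole. In w1118, 5 of the 9 rose between these days and 1, Jabba, fell, by 0.68 on the log2 scale. In the library per0 CT28 B, 5 genes that separate the genotypes lay at a median of 0.424 of the way from per0 to w1118. The other 17 per0 libraries lay at -0.0025 to 0.0274. These 5 genes were picked for standing far higher in every w1118 library than in any of those 17, with CT28 B left out. The low range of the 17 thus follows from the choice. Salivary gland markers summed to 13400 CPM in CT28 B. Whether this library is a mixture was not tested. One of the w1118 CT0 samples carries a per0 genotype tag against its title and was kept as w1118. In bulk samples such as these, fewer cells of a type and less RNA per cell cannot be told apart.

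Together the 33 genes took 0.144 to 0.379% of the counts of a w1118 library, with a median of 0.234%, and 0.125 to 0.391% of a per0 library, with a median of 0.290%. Per kilobase of exon, the cytosolic genes had a median level of 37.4 CPM in w1118 and 47.0 in per0, and the mitochondrial genes 6.48 and 8.61. The cytosolic level per kilobase was highest for SerRS, the seryl enzyme, at 141 in w1118 and 169 in per0, and lowest for MetRS, the methionyl enzyme, at 12.8 and 14.8. Among the mitochondrial genes PheRS-m, the phenylalanyl enzyme, stood highest, at 24.9 in w1118 and 31.8 in per0, above GluProRS, CysRS and MetRS of the cytosolic set. IleRS-m was the lowest gene in w1118, at 2.26, and ValRS-m the lowest in per0, at 2.87. Counting without strand cannot separate overlapping genes, and 5 members shared over 10% of their exonic bases with another gene. For AspRS the share was 73.5%, mainly with Nmda1, whose own median was 91.5 CPM in w1118 and 118 CPM in per0.

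**Figure D1:**
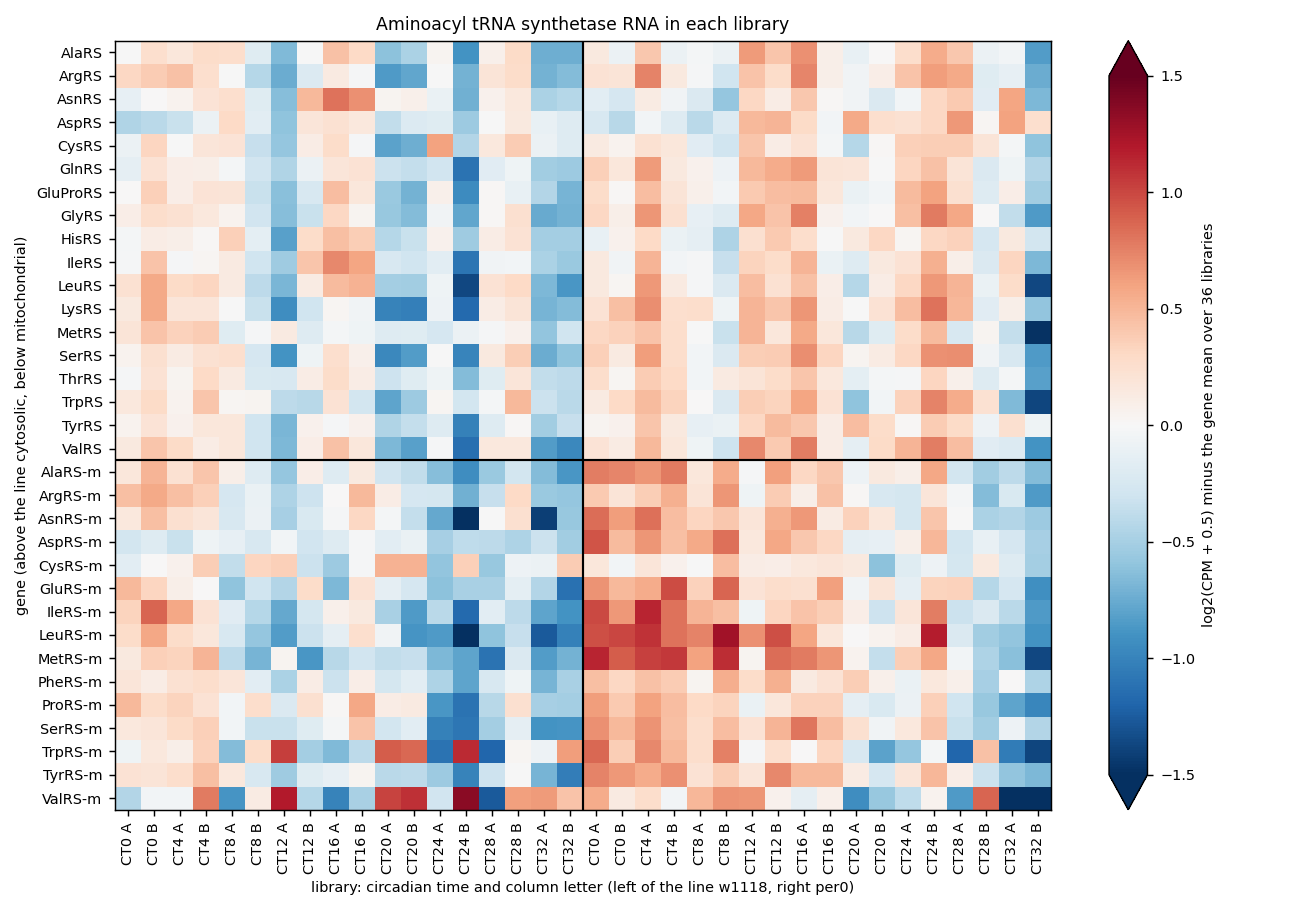
Level of each of the 33 genes in each of the 36 libraries, as log2(CPM + 0.5) minus the gene's mean over all libraries, with w1118 left and per0 right of the vertical line and cytosolic genes above the horizontal line. The mitochondrial rows turn from red to blue across the per0 libraries, while ValRS-m and TrpRS-m are red in a scatter of w1118 libraries in which most cytosolic rows are blue.

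The first comparison asked whether the synthetase RNAs changed between the same clock phases a day apart in the same constant darkness. Second-day larvae were sampled a day later, so larval age or stage and time in darkness cannot be told apart from day. In w1118 the mitochondrial set was lower on the second day: 9 of 15 genes (60%) fell, for alanine, arginine, isoleucine, leucine, methionine, phenylalanine, proline, serine and tyrosine, and none rose. Of all 11394 genes tested, 15.1% were called in either direction, 10.5% lower and 4.57% higher (edgeR's quasi-likelihood test, adjusted p under 0.05 by Benjamini-Hochberg). Of the 18 cytosolic genes only MetRS fell, by 0.41 ± 0.09 on the log2 scale (standard error, adjusted p = 0.0108). The median log2 change was -0.81 over the mitochondrial genes, -0.45 over the cytosolic genes and 0.13 over all genes.

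AlaRS-m, the alanyl enzyme of mitochondria, ran from 38.8 to 63.4 CPM with a median of 50.9 in the 6 first-day libraries of w1118, and from 22.9 to 36.4 CPM with a median of 28.2 in the 6 second-day libraries. The days did not overlap, and the log2 change was -0.90 ± 0.11 (adjusted p = 0.0012). It was the only member whose w1118 second-day libraries all lay below its first-day libraries, a separation found in 4.45% of all genes. SerRS-m, the seryl enzyme, ran from 14.8 to 24.1 CPM on the first day and from 8.56 to 17.1 CPM on the second, where only CT28 B reached into the first-day range. Its log2 change was -0.91 ± 0.13 (adjusted p = 0.00183).

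LeuRS-m, the leucyl enzyme, had the largest change of the w1118 members, from a median of 32.3 CPM (18.3 to 41.7) to 14.3 CPM (7.35 to 21.7), with a log2 change of -1.09 ± 0.23 (adjusted p = 0.0113). Of its second-day libraries 5 of 6 lay below every first-day library. IleRS-m, the isoleucyl enzyme, changed by -0.95 ± 0.23 (adjusted p = 0.0218), from a median of 10.3 to 5.42 CPM. ProRS-m, the prolyl enzyme, changed by -0.86 ± 0.23 (adjusted p = 0.0294), from a median of 9.07 to 5.12 CPM. MetRS-m changed by -0.82 ± 0.19 (adjusted p = 0.0195), and in this gene the decline was already present at CT8, where both libraries, at 9.90 and 7.92 CPM, lay below the 4 libraries of CT0 and CT4, at 14.6 to 18.9 CPM.

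RNA of other cell types moved over the same contrast. In w1118, 5 of 9 hemocyte markers (blood cell genes) fell, against 10.5% of all genes, with a median log2 change of -1.02. Their summed level ran from 476 to 1716 CPM on the first day and from 309 to 945 CPM on the second, with none at 0. In per0 the sum ran from 540 to 1973 CPM and from 435 to 1581 CPM. There 1 of the 9 fell and 1 rose, against 7.64% and 8.97% of all genes. Salivary gland markers rose in w1118 for 4 of 7 genes, with sums of 0 to 3.96 CPM on the first day and 0.0496 to 2527 CPM on the second. The part of these markers in the synthetase changes was not tested.

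The w1118 count of 10 members rose to 18 with DESeq2, of which 6 were cytosolic and 12 mitochondrial. It was 6 without CT0 A, CT0 B, CT4 A or CT24 A, each left out singly. With the testis marker level as a covariate, chosen after seeing the data, 4 mitochondrial and 0 cytosolic genes passed, and the calls of LeuRS-m, IleRS-m, ProRS-m and MetRS-m were lost, while AlaRS-m and SerRS-m passed under every alternative run.

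In per0, 9 of 15 mitochondrial genes (60%) were again lower on the second day, against 7.64% of all 10552 genes tested called lower and 16.6% called in either direction. They were the genes for alanine, asparagine, aspartate, isoleucine, leucine, methionine, proline, tryptophan and tyrosine. Of the cytosolic genes 1 of 18 changed, AspRS, which rose, where 8.97% of all genes were called higher. The median log2 change was -0.64 over the mitochondrial genes, 0.16 over the cytosolic genes and -0.11 over all genes, and the estimate was below 0 for 15 of 15 mitochondrial genes and above 0 for 16 of 18 cytosolic genes. Most members moved together over the 18 libraries of a genotype. The median correlation of pairs was 0.82 within the mitochondrial and 0.80 within the cytosolic genes in per0, and 0.64 and 0.81 in w1118. Exceptions in w1118 were ValRS-m, TrpRS-m and CysRS-m, with medians of -0.25, -0.11 and -0.01 against the other mitochondrial genes. In per0 AspRS had a median of 0.15 against the other cytosolic genes. Counts of members, here and in the other comparisons, are therefore not counts of independent genes. The small cytosolic median log2 change in per0 turned to -0.03 without CT0 A and to -0.06 without CT0 B. Called in both genotypes, and lower in both, were AlaRS-m, IleRS-m, LeuRS-m, MetRS-m, ProRS-m and TyrRS-m, 6 genes that make up 60% of either list. Of all genes tested in both genotypes, 662 were called in both, which was 39.1% of the w1118 calls and 38.7% of the per0 calls, and whether the members differ from this was not tested.

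MetRS-m stood at 20.2 to 29.5 CPM, with a median of 27.6, in the 6 first-day libraries of per0 and at 4.80 to 19.9 CPM, with a median of 11.1, in the 6 second-day libraries. The days did not overlap, and the log2 change was -1.07 ± 0.24 (adjusted p = 0.0158). ArgRS-m and GluRS-m also had every second-day library below every first-day library, which makes 3 of 15 mitochondrial and 0 of 18 cytosolic genes, against 5.16% of all genes. Neither of these 2 genes passed the test.

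TrpRS-m, the tryptophanyl enzyme, changed by -0.99 ± 0.27 in per0 (adjusted p = 0.0326), from a median of 43.2 to 15.98 CPM. LeuRS-m changed by -0.95 ± 0.28 (adjusted p = 0.0411), from a median of 55.2 to 21.4 CPM. Its second-day libraries ran from 14.6 to 29.8 CPM apart from CT24 B, at 62.8 CPM, which lay inside the first-day range of 46.6 to 67.0. IleRS-m, ProRS-m and AsnRS-m, the asparaginyl enzyme, changed by -0.76 ± 0.21, -0.72 ± 0.18 and -0.64 ± 0.16 (adjusted p = 0.0337, 0.0247 and 0.0253). In all 3 genes 5 of 6 second-day libraries lay below every first-day library.

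AspRS, the aspartyl enzyme of the cytosol, was the single member that rose. Its first-day libraries in per0 ran from 59.5 to 77.6 CPM, with a median of 68.2, and its second-day libraries from 81.3 to 126 CPM, with a median of 97.3. The days did not overlap, as in 1.89% of all genes in this direction, and the log2 change was 0.80 ± 0.15 (adjusted p = 0.00818). The rise was present from CT12, where the libraries held 112 and 114 CPM. Reads shared with Nmda1 could not be told apart from those of AspRS.

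The per0 count of 10 was 2 without CT4 A, CT24 A or CT32 B and 3 without CT4 B, CT28 A or CT32 A, each left out singly. Without the library CT28 B it was 10, of which 2 were cytosolic. AspRS and MetRS-m passed in all alternatives run, whereas TrpRS-m, LeuRS-m, IleRS-m, ProRS-m and AsnRS-m each lost the call in 4 to 8 of the 12 fits that leave out a library.

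**Figure D2:**
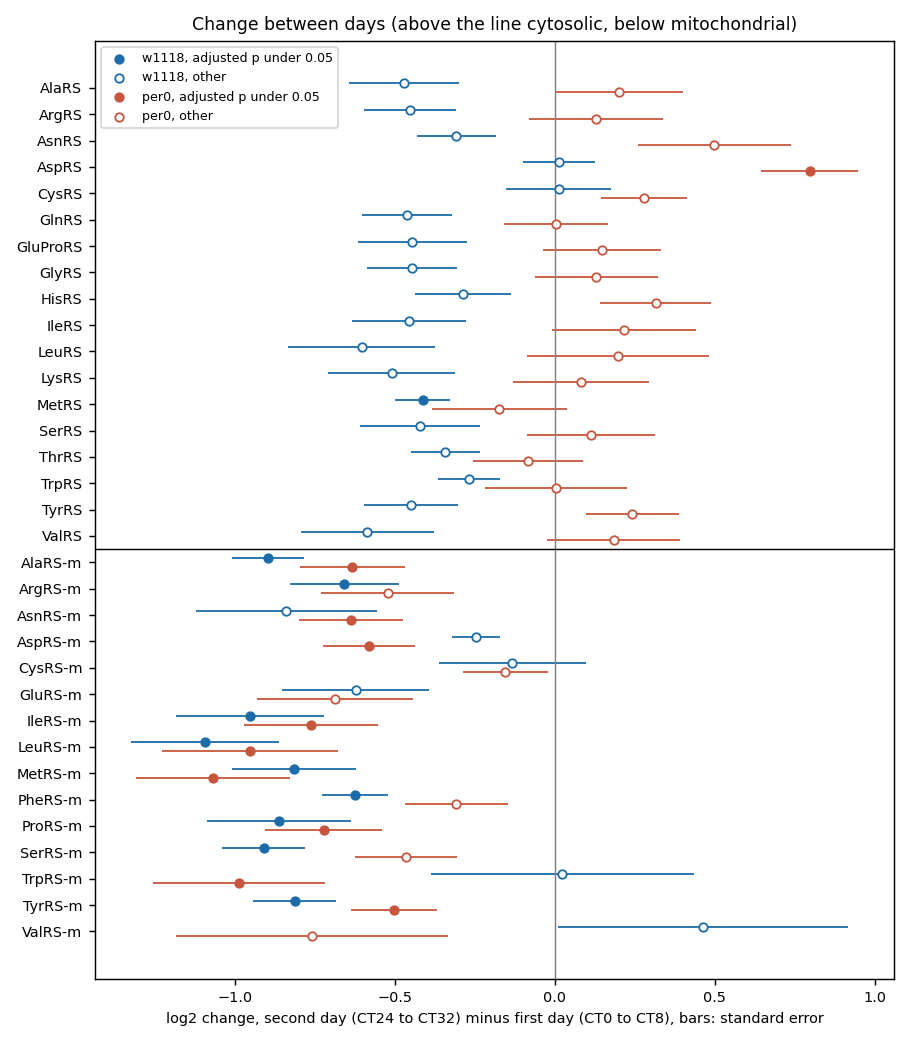
Fitted log2 change from the first to the second day for each gene, with its standard error as a bar, for w1118 in blue and per0 in orange, filled where the adjusted p was under 0.05. All 15 mitochondrial genes lie left of 0 in per0 and 13 of 15 in w1118, and the cytosolic genes lie left of 0 in w1118 (16 of 18) and mostly right of it in per0 (16 of 18).

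Whether the day change differed between genotypes was tested as an interaction over 24 libraries. Of the 33 members 0 passed with edgeR, against 0.499% of all 11815 genes, 5 had an unadjusted p under 0.05, against 11.0% of all genes, and 1 passed with DESeq2. The smallest p-values belonged to AspRS, with a difference of 0.58 ± 0.17 (adjusted p = 0.179), AspRS-m, with -0.53 ± 0.16 (adjusted p = 0.201), and TyrRS, with 0.49 ± 0.19 (adjusted p = 0.356). Without per0 CT28 B 1 cytosolic gene passed. The opposite signs of the cytosolic medians in w1118 and per0 are therefore not shown to differ gene by gene.

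Because a count ratio within a library does not depend on the scaling of libraries, each of the 12 cytosolic genes for a single amino acid with a mitochondrial gene was set against that gene. The ratio moved toward the cytosolic enzyme in 12 of 12 pairs in per0 and in 10 of 12 in w1118, with median shifts of 0.92 and 0.38 on the log2 scale. A 2-sided exact permutation test within clock phase, whose smallest possible p is 0.00926 over 216 orders, gave an unadjusted p under 0.05 for 11 pairs in per0 and 4 in w1118 among 24 tests. When every gene tested was set against the same 12 mitochondrial genes in the same way, the ratio moved up in 70.3% of cases in per0 and 79.8% in w1118, and moved up with an exact p under 0.05 in 38.3% and 43.3%. The w1118 counts were thus near this background. These ratios were chosen after the data were seen and use the same counts as the comparison of days.

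The aspartyl pair shifted most in per0, but 73.5% of the exonic bases of AspRS were shared, mainly with Nmda1, whose reads could not be told apart. AspRS counts over AspRS-m counts had a mean log2 ratio of -0.18 on the first day, between -0.47 and 0.09, and of 1.18 on the second, between 0.54 and 1.67. The shift was 1.35 ± 0.15. In w1118 the same ratio moved from 0.75 to 1.02, with overlapping days and an exact p of 0.0648.

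The asparaginyl ratio in per0 moved from 3.2 to 4.28 (shift 1.09 ± 0.22), the isoleucyl ratio from 3.35 to 4.31 (0.96 ± 0.14), the methionyl ratio from 0.94 to 1.83 (0.88 ± 0.20) and the alanyl ratio from 1.68 to 2.49 (0.81 ± 0.17). With the aspartyl pair these were the 5 whose days did not overlap, against 7.36% of all genes over the same 12, and each had the smallest possible p. The valyl pair was the exception to the 11, with a shift of 1.02 ± 0.43 and an exact p of 0.0926. In w1118 the 4 pairs were isoleucyl (0.48 ± 0.09), leucyl (0.48 ± 0.10), seryl (0.47 ± 0.16) and tyrosyl (0.36 ± 0.11), and of these 4 only the tyrosyl days did not overlap, against 5.4% of all genes. The tyrosyl gap was narrow, with a highest first-day ratio of 1.9301 and a lowest second-day ratio of 1.9310. With 5 counts as the constant added to each gene, 0 w1118 pairs were without overlap. The 2 w1118 pairs with a shift below 0 were valyl, at -0.92 ± 0.66, and tryptophanyl, at -0.12 ± 0.49, and neither passed. Leaving out single libraries gave 10 to 12 pairs in per0 and 3 to 7 in w1118, where the 7 came without CT8 A.

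**Figure D3:**
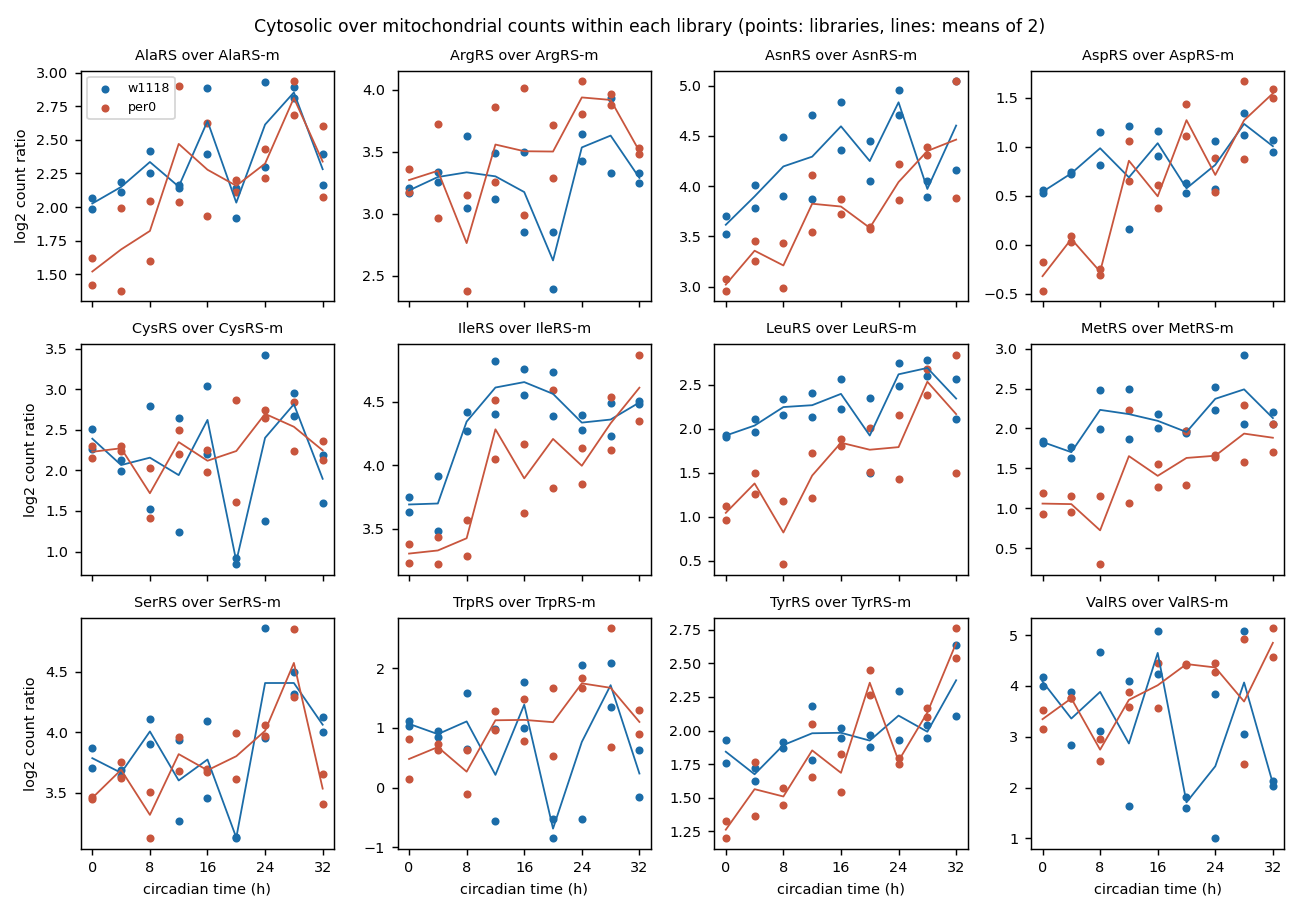
Log2 ratio of cytosolic to mitochondrial counts for the 12 amino acids with a cytosolic gene of their own and a mitochondrial gene, by circadian time in hours, with a point per library and a line through the mean of 2 libraries, w1118 blue and per0 orange. In the alanyl, aspartyl, asparaginyl, isoleucyl and methionyl panels all per0 points from CT0 to CT8 lie below all per0 points from CT24 to CT32, and the valyl and tryptophanyl panels show w1118 libraries far below their neighbours.

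The other genes of mitochondrial translation were read from lists of related genes. Of 8 mitochondrial translation factors tested, 5 fell in w1118 and 6 in per0, and 0 rose in either. Of all genes, 10.5% were called lower in w1118 and 7.64% in per0. The listed genes mtTFB1 and GatC, a subunit of the amidotransferase, had 0 CPM in all 36 libraries and were not tested. In w1118 the elongation factors mEFTu2, mEFTu1 and mEFG1 fell by 0.64, 1.33 and 1.59 on the log2 scale (adjusted p = 0.00134, 0.00235 and 0.00338), and the recycling factor mRRF1 fell by 0.78 (adjusted p = 0.00271). In per0 the exchange factor mEFTs fell by 0.83 (adjusted p = 0.0121), the initiation factors mIF2 and mIF3 by 0.80 and 0.54 (adjusted p = 0.0204 and 0.0245) and mEFTu1 by 0.92 (adjusted p = 0.0248). GatA and GatB, subunits of the amidotransferase, fell in w1118 by 0.56 and 0.85 (adjusted p = 0.0206 and 0.0214), and their per0 estimates of -0.63 and -0.62 did not pass (adjusted p = 0.0669 and 0.0731). Slimp fell by 0.89 in per0 (adjusted p = 0.00686) and did not pass in w1118, at -0.58 (adjusted p = 0.151).

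On the cytosolic side 0 of 7 elongation factors passed in either genotype, and of the 3 AIMP scaffold proteins only AIMP2 fell, in w1118, by 0.53 (adjusted p = 0.0174). The phenylalanyl subunits alpha-PheRS and beta-PheRS changed by -0.39 and -0.40 in w1118 and by 0.28 and 0.23 in per0, none of which passed. Among 10 genes of tRNA end processing and RNA polymerase III, 2 fell in w1118 (Polr3D and RNaseZ) and 2 rose in per0, the polymerase regulator Maf1 and the initiation factor Brf. Of 14 genes listed for the amino acid response, the mitochondrial carrier sesB among them, 2 rose and 2 fell in w1118. In per0, 3 rose and 0 fell. Of all genes tested, 15.1% were called in either direction in w1118 and 16.6% in per0. AsnS, the asparagine synthetase that makes the free amino acid, rose by 0.92 in w1118 (adjusted p = 0.00437) and by 1.3 in per0 (adjusted p = 0.0181). crc, the fly ATF4 transcription factor of that response, rose in w1118 by 0.36 (adjusted p = 0.0284), and its per0 estimate was 0.56 (adjusted p = 0.0658). sesB, the ADP/ATP carrier of mitochondria, and Bcat, the branched-chain aminotransferase, fell in w1118 by 1.69 and 1.11 (adjusted p = 0.00275 and 0.00994). In per0 Shmt, the serine hydroxymethyltransferase, and the eIF2 kinase Gcn2 rose by 0.65 and 0.49 (adjusted p = 0.0313 and 0.0459), and the sesB estimate was -0.90 (adjusted p = 0.0506).

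The second comparison asked whether the synthetase RNAs differ between per0 and w1118 over the same times. Higher in per0 were 19 of 33 members, 9 of 18 cytosolic and 10 of 15 mitochondrial, and none was lower. Of all 12020 genes 42.4% were called, 19.4% higher and 23.0% lower. The median log2 difference was 0.47 over the mitochondrial genes, 0.27 over the cytosolic genes and -0.16 over all genes.

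LeuRS-m was 0.83 ± 0.15 higher on the log2 scale in per0 (adjusted p = 0.000113). Its first-day libraries ran from 46.6 to 67.0 CPM in per0 and from 18.3 to 41.7 CPM in w1118 without overlap, while the second-day ranges, 14.6 to 62.8 and 7.35 to 21.7 CPM, overlapped. MetRS-m was 0.73 ± 0.14 higher (adjusted p = 0.000102), with first-day ranges of 20.2 to 29.5 CPM in per0 and 7.92 to 18.9 CPM in w1118. AspRS-m was 0.52 ± 0.08 higher (adjusted p = 1.33e-05), with first-day ranges of 65.8 to 93.1 and 37.9 to 45.8 CPM and second-day ranges of 33.7 to 68.0 and 33.3 to 38.3 CPM. These were the 3 mitochondrial genes with all first-day libraries higher in per0, against 5.24% of all genes, and on the second day 0 of 33 members were so separated, against 1.75%.

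Also among the 6 genes with the largest differences were LysRS, the lysyl enzyme of the multisynthetase complex, at 0.54 ± 0.12 (adjusted p = 0.000951), IleRS-m, at 0.53 ± 0.11 (adjusted p = 0.000436), and GluRS-m, the glutamyl enzyme, at 0.52 ± 0.13 (adjusted p = 0.00192). LysRS was the only cytosolic gene of the 6. Its median was 98.8 CPM in w1118 and 105 in per0 on the first day, 58.9 and 110 CPM at night, and 69.8 and 108 CPM on the second day, and the ranges of the genotypes overlapped in each of the 3. At night TyrRS was the member whose per0 libraries, at 89.1 to 114 CPM, all lay above the w1118 libraries, at 50.9 to 86.2 CPM, as did 4.71% of all genes. Members with an estimate below 0 were AsnRS, CysRS-m, TrpRS-m and ValRS-m, at -0.02 to -0.32, and none of these passed.

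The 6 named genes kept their calls in all alternatives. With the testis marker level as a covariate 11 mitochondrial and 2 cytosolic genes passed, in place of 10 and 9, and the cytosolic median difference was 0.12. Storage protein levels also differed between the genotypes, since the summed fat body markers had a first-day range of 85567 to 374385 CPM in w1118 and of 20005 to 69811 CPM in per0. Of 9 hemocyte markers 5 were higher in per0 and 1 lower, against 19.4% and 23.0% of all genes. Their median log2 difference was 0.79. Of 6 neuron and glia markers 4 were lower, with first-day sums of 65.3 to 174 CPM in per0 and 96.9 to 221 CPM in w1118. Syt1 and nrv2 made up most of these sums, so the sums do not measure neural RNA as a whole. At the lowest sum, in per0 CT0 A, Syt1 held 50.9, nrv2 12.3 and nSyb 0.247 CPM. The part of the storage protein, hemocyte and neuron and glia markers in the result was not tested.

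Likewise higher in per0, against 19.4% of all genes, were all 8 mitochondrial translation factors tested and 2 of 2 amidotransferase subunits tested. The same held for 2 of 3 AIMP proteins and 5 of 7 cytosolic elongation factors. Of these mEFTu1 was higher by 0.72, mIF3 by 0.37, the release factor mRF1 by 0.48 and mEFG1 by 0.64 (adjusted p = 3.77e-05, 0.00217, 0.00221 and 0.00302), and eEF1beta, a cytosolic exchange factor, by 0.52 (adjusted p = 0.00033). La, which binds new RNA polymerase III transcripts, tRNA precursors among them, was higher by 1.08 (adjusted p = 4.56e-06). Against 19.4% and 23.0% of all genes, 4 of the 14 genes of the amino acid response were higher in per0 and 2 lower. By smallest p these were trbl, at 0.64, CG5535, at 1.005, AsnS, at -0.94, and sesB, at 0.69 (adjusted p = 0.000433, 0.000461, 0.00109 and 0.00251).

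**Figure D4:**
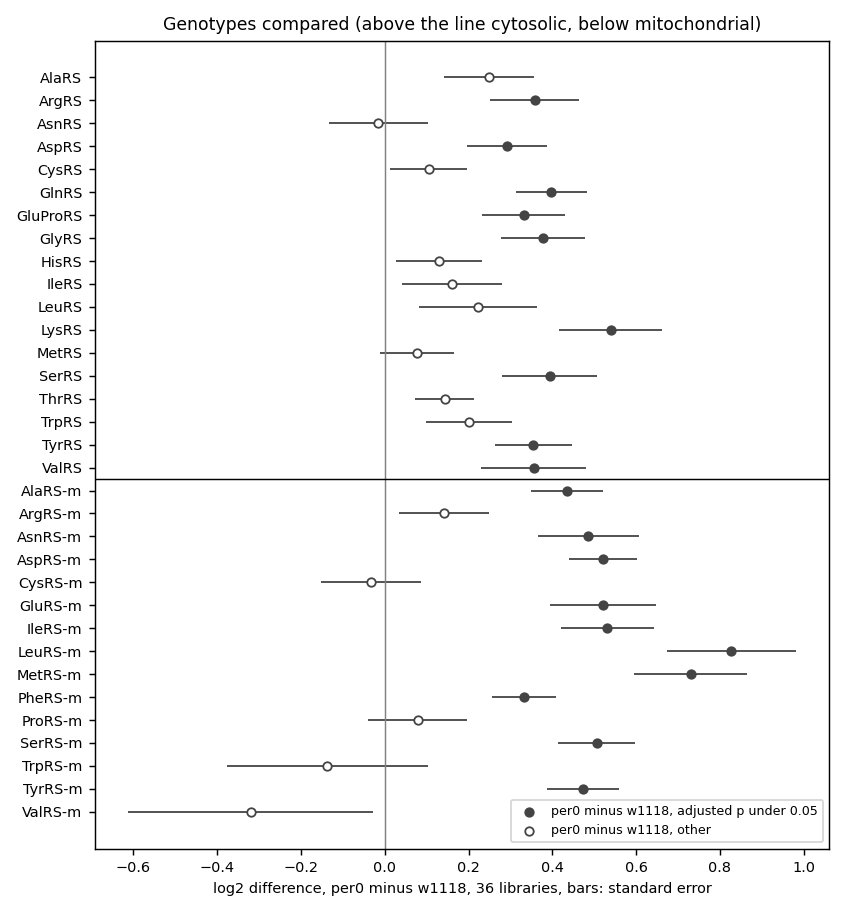
Fitted log2 difference between per0 and w1118 over 36 libraries for each gene, with its standard error as a bar and filled points where the adjusted p was under 0.05. Of the 19 filled points all lie right of 0, and LeuRS-m and MetRS-m lie farthest right.

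In w1118, most cytosolic synthetases were lowest in the libraries with most marker RNA of another organ, the testis. The 12 testis markers, germline and spermatid genes, summed to between 286 and 843 CPM in CT12 A, CT20 A, CT20 B, CT24 B, CT32 A and CT32 B and to between 1.39 and 252 CPM in the other 12 w1118 libraries, a division into 6 and 12 chosen after the values were seen. The libraries next below it were CT28 B, at 252 CPM, and CT8 B, at 233 CPM, and CT28 B had the highest SerRS level of the 18 w1118 libraries. Of the 18 cytosolic genes 11 were lower in all 6 of those libraries than in any of the 12 others, as was 1 of 15 mitochondrial genes, IleRS-m, against 2.64% of all genes. SerRS ran from 133 to 174 CPM in the 6 libraries and from 223 to 343 CPM in the other 12, and ArgRS from 51.6 to 59.6 CPM and from 69.4 to 128 CPM. Of these 6 libraries 3 belong to the second day and 3 to the night, and none to the first day, so the w1118 cytosolic changes by day and these markers moved together. In per0 the testis sum had a median of 13.1 CPM on the first day (4.61 to 62.9) and 2.75 CPM on the second (1.47 to 321). The testis marker ocn had 0 CPM in per0 CT20 A, CT20 B, CT24 B, CT28 A and CT32 A, so testis RNA was uneven among the per0 pools too. The part of testis RNA in the day changes of either genotype was not tested beyond the fits with the covariate.

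A few mitochondrial members went with the testis markers in the other direction. ValRS-m, the valyl enzyme, held 12.3 to 23.7 CPM in the 6 libraries and 3.45 to 15.8 CPM in the others, TrpRS-m 26.7 to 61.9 and 12.1 to 35.97 CPM, and CysRS-m, the cysteinyl enzyme, 10.8 to 16.8 and 7.48 to 15.0 CPM. Each of these 3 genes had 5 of its 6 highest w1118 libraries among the 6 with most testis marker RNA. The share of all genes with such an overlap was not counted, so whether it is unusual is not known. With LeuRS-m, ValRS-m and TrpRS-m had the widest w1118 ranges of the 33 members, at 6.87 times from lowest to highest for ValRS-m, 5.67 for LeuRS-m and 5.13 for TrpRS-m. In per0 the testis sum was at most 92.9 CPM except in CT28 B, at 321 CPM, the library that lay 0.424 of the way to w1118 in genes picked without it. ValRS-m had its per0 maximum of 16.8 CPM in that library. TrpRS-m, at 38.3 CPM, and CysRS-m, at 12.8 CPM, stood below their per0 maxima of 51.6 and 16.1 CPM there. The w1118 day estimates of these 3 genes, 0.46 ± 0.45, 0.02 ± 0.41 and -0.13 ± 0.23, did not pass (adjusted p = 0.472, 0.971 and 0.686).

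**Figure D5:**
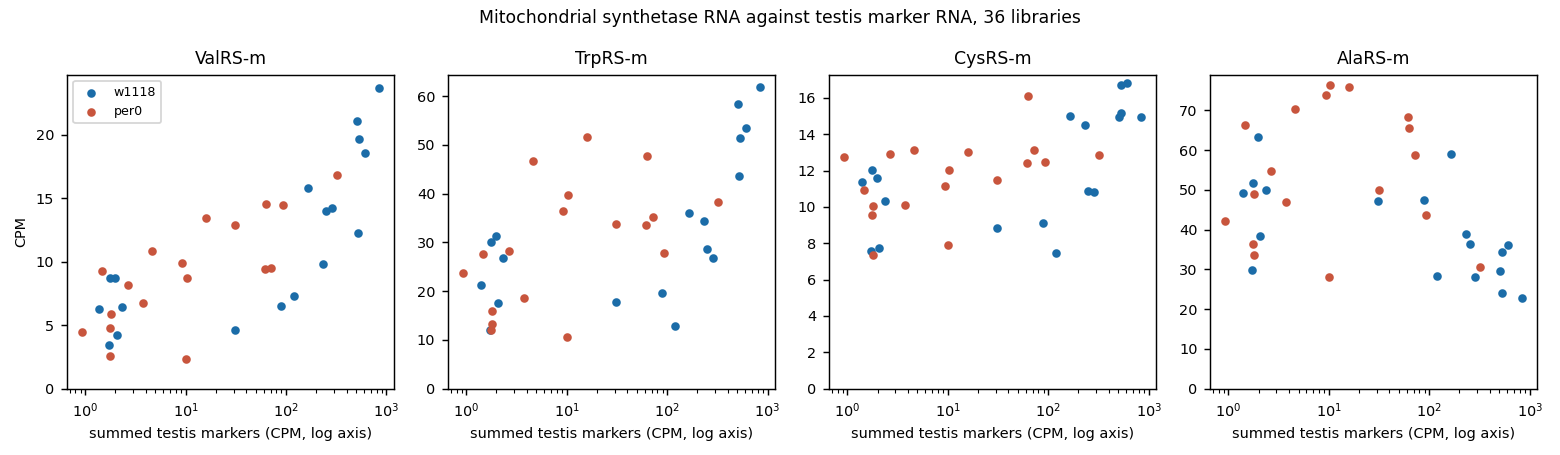
CPM of 4 mitochondrial synthetase genes against the summed CPM of 12 testis markers on a log axis, with a point per library, w1118 blue and per0 orange. ValRS-m and TrpRS-m reach their w1118 maxima of 23.7 and 61.9 CPM at the highest testis marker sum, where AlaRS-m has its w1118 minimum of 22.9 CPM.

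The remaining comparisons asked for a clock pattern. For a 24 h rhythm 0 of 33 members passed in w1118, against 0.618% of all 11650 genes, and 0 in per0, against 0% of 10926 genes. With edgeR 0 members had an unadjusted p under 0.05 in either genotype, against 9.56% and 10.5% of all genes, and 0 passed with DESeq2. The smallest p in w1118 belonged to TrpRS, with a peak-to-trough size of 0.57 ± 0.21 on the log2 scale (adjusted p = 0.522), AsnRS and ArgRS (adjusted p = 0.708 and 0.723), and in per0 to SerRS, ValRS and IleRS-m (adjusted p = 0.615, 0.691 and 0.736).

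For a 12 h rhythm 0 members passed with edgeR in either genotype, as did 0% of all genes, and 1 passed with DESeq2 in each. At an unadjusted p under 0.05 there were 10 of 18 cytosolic and 0 of 15 mitochondrial genes in w1118, against 8.52% of all genes, and 4 cytosolic genes in per0, against 10.2%. ArgRS, the arginyl enzyme, had a peak-to-trough size of 0.92 ± 0.24 in w1118 (adjusted p = 0.473), GlyRS, the glycyl enzyme, of 0.78 ± 0.23 (adjusted p = 0.494) and AsnRS of 0.73 ± 0.22 (adjusted p = 0.506). The ArgRS libraries stood at 112 to 128 CPM at CT0 and CT4, at 93.2 and 69.4 CPM at CT8, at 55.6 and 81.2 CPM at CT12, at 92.9 and 103 CPM at CT16, at 51.6 and 54.5 CPM at CT20, at 93.0 and 57.2 CPM at CT24, at 107 and 113 CPM at CT28 and at 57.1 and 59.6 CPM at CT32. The 6 lowest of these libraries, CT12 A, CT24 B and both of CT20 and CT32, were the 6 with most testis marker RNA, and CT8 B, the next lowest, was not among them. In per0 TrpRS had a size of 0.99 ± 0.25 (adjusted p = 0.306), GlyRS of 0.80 ± 0.24 (adjusted p = 0.389) and MetRS of 0.82 ± 0.24 (adjusted p = 0.389).

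The night was also set against the days on both sides of it. With edgeR 0 members passed in w1118, against 1.76% of all genes, and 0 in per0, against 0%, and 0 passed with DESeq2 in either. In w1118 the only unadjusted p under 0.05, against 15.9% of all genes, was that of TrpRS, at -0.46 ± 0.17 (adjusted p = 0.175), and in per0 there were 0, against 8.91%. The difference between genotypes in this contrast passed for 0 members with edgeR and with DESeq2, against 0% of all genes, with 0 members at an unadjusted p under 0.05, against 6.99%. Its smallest p-values were those of TyrRS, at 0.30 ± 0.17, AspRS-m, at -0.26 ± 0.16 (both adjusted p = 0.79), and LysRS, at 0.45 ± 0.28 (adjusted p = 0.821).

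Any difference among the 9 times passed for 4 members in w1118, SerRS-m (adjusted p = 0.00765), MetRS (0.0164), ArgRS (0.0363) and TyrRS-m (0.0432), against 12.2% of all genes. In per0 it passed for 4 mitochondrial members, ProRS-m (adjusted p = 0.0385), IleRS-m (0.0391), MetRS-m (0.0455) and LeuRS-m (0.0464), against 9.71% of all genes. The fitted time means of these 8 calls ranged over 0.84 to 1.98 on the log2 scale. These counts moved with single libraries. In w1118 the count was 20 without CT12 A, 15 without CT24 A or CT24 B, 11 without CT12 B, 9 without CT20 A, 2 without CT0 A, CT4 A or CT32 A and 1 without CT4 B or CT32 B. In per0 it was 8 without CT28 A, 7 without CT12 B, 2 without CT8 A, CT12 A, CT24 A or CT24 B, 1 without CT16 B, CT20 A or CT20 B, and 0 without CT0 A, CT0 B, CT4 A, CT4 B, CT8 B, CT16 A, CT32 A or CT32 B. Other alternatives moved them too, to 24 with DESeq2, 11 with RLE scaling and 0 with the testis covariate in w1118 and to 13 with DESeq2 and 9 with the covariate in per0. SerRS-m kept its w1118 call in all 18 fits that leave out a library and lost it with the testis covariate (adjusted p = 0.0613), and in each per0 gene it was lost in 10 to 15 of 18.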

How the data were processed

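Gene-level raw counts were deposited by the authors, 1 table per genotype, covering 17610 genes in 36 libraries of fat body RNA amplified with SMART-Seq v4, per the labels' protocols, a kit that keeps no strand. Per the submitters' processing notes the tools were featureCounts, STAR 2.7.9a, DESeq2 1.30.1 and edgeR, with no stated roles. The genome build was not given in the sources used here, so no coordinates are given. The authors also deposited a normalized signal table per genotype, which was not used. All per-sample columns mapped to a group, and 0 others were left out.

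Counts were fitted over all genes with edgeR 4.0.16 in R 4.3.3, with TMM scaling, filterByExpr by genotype and time and the quasi-likelihood F test. All 33 members passed the filter in every fit. Adjusted p-values are Benjamini-Hochberg over all genes tested, and a gene was called under 0.05. CPM values are scaled by TMM over 36 libraries. Days were compared with clock phase as a factor, genotypes with time as a factor, and rhythms by harmonic terms with periods of 24 h and 12 h. Levels per kilobase used exon lengths from an Ensembl annotation, matched by symbol for all 33 members, whose build may differ from that of the counts.

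The fits were tested on simulated data with 100 genes changed by 1 and 100 by 3 on the log2 scale. For the w1118 change between days 26 and 77 of these were recovered, with 6 false calls among 11394 genes. For the 24 h rhythm in w1118, where the change was from peak to trough, 6 and 60 were recovered.

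The members and gene lists were chosen with earlier results of these data known. For each comparison the 6 called members with the largest change in each direction were named, or the 6 with the smallest p where several terms were tested together, or the 3 with the smallest p where none was called. Of each list up to 4 genes were named by smallest p in a comparison, some with their value in the other genotype. Other genes named, MetRS and TyrRS-m among them, were singled out after their values were seen. The alternatives were RLE scaling, no filter on low counts, DESeq2 1.42.0, an error term from duplicates, each library left out in turn and, added later, the mean log2 level of the testis markers as a covariate and the column letter as a block. Whether the 2 libraries of a group came from separate cultures is not in the labels, so p-values may measure only the spread between these pools. Counts of the 18 duplicate pairs differed by more than sampling noise.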

Additional observations from a re-analysis of the deposited data

How the results depend on the processing

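Members called per comparison changed as follows. For the second day in w1118 the main count of 10 became 18 with DESeq2, 4 with the testis covariate and 6 to 14 with a library left out. For per0 it ran from 2 to 11 with a library left out. For any difference among times it became 24 with DESeq2, 11 with RLE scaling and 0 with the testis covariate in w1118 (1 to 20 with a library left out), and 13 with DESeq2 and 9 with the covariate in per0 (0 to 8). Where 0 members passed, DESeq2 called 1 for the 12 h rhythm of w1118, 1 for that of per0 and 1 for the difference in day change, which ran from 0 to 1 with a library left out, and a factor of times called 1 for the w1118 night. The genotype count ran from 18 to 22, and the pair counts from 3 to 7 in w1118 and 10 to 12 in per0. The per0 cytosolic median of the day change turned to -0.0255 and -0.0576 without CT0 A and CT0 B and ran up to 0.314 with another library left out. For single genes in tests of several terms DESeq2 gave no size and was left out. The cause of these differences was not tested. RLE scaling moved the median of all genes by less than 0.1 on the log2 scale in each comparison. Over all results and alternatives, 2190 of 2464 values kept direction and side of the threshold. Depth was not limiting for the cytosolic genes, whose lowest count was 263, while the lowest mitochondrial count was 39. No label ties the column letters A and B to the replicate numbers, and over 36 pairs of times the A minus B differences correlated at -0.63 to 0.69 across genes in w1118 and at -0.23 to 0.50 in per0, so the letters are not taken as pairs. With the letter as a block, added after seeing the data, any difference among times passed for 2 members in w1118 and 2 in per0, the second day for 11 and 10 and genotype for 19.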
